A study of Mus musculus with 9 samples.

Results

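The 10 genes described here, *Glul*, *Slc1a3*, *Kcnj10*, *Aqp4*, *Car14*, *Apoe*, *Dbi*, *Vim*, *Sox9* and *Dkk3*, are transcribed in Müller glial cells and serve what these cells do for the neurons around them. They were chosen by gene symbol. All 10 were found among the 25239 gene names listed for each library, and all 10 passed the filter on low values that left 15198 genes to test. Bulk RNA-Seq was done on whole retinas of mice at P42 on a C57BL/6J background, with a pair of retinas in each library. There were 3 libraries of +/+ mice, 3 of Rbpms-CreERT2/+ mice (Cre/+) and 3 of Rbpms-CreERT2/CreERT2 mice (Cre/Cre). The knock-in joins P2A and CreERT2, a Cre recombinase that needs tamoxifen to act, to the C-terminus of RBPMS, a protein that marks retinal ganglion cells (RGCs). Every Cre/+ and Cre/Cre mouse carries this same edited allele, RBPMS is also made in smooth muscle, and no tamoxifen is stated for these mice. The comparison of genotypes asks whether the knock-in alleles alone altered the transcripts of a glial cell type, although the edited gene marks a neuron.

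Müller glial cells span the thickness of the retina and are its main macroglia. They take up glutamate released at synapses and turn it into glutamine, carry potassium and water from the neuropil to the vitreous and the vessels, buffer acid and supply lipids. When the retina is injured they become reactive, and their intermediate filament proteins accumulate. The values are from whole retina, so RNA of other cells is in them too. For example, *Apoe* is also made by microglia and astrocytes, *Vim* by vascular cells and the lens epithelium, and *Dkk3* and *Dbi* by neurons. These examples are not complete, and the other genes are not taken to be made by Müller cells alone.

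The libraries held 4.05 to 4.65 gigabases of aligned sequence. Expression is given as TPM, a share of all transcripts corrected for gene length. The edited gene itself, *Rbpms*, had 38.4 to 43.4 TPM in +/+, 31.3 to 33.1 TPM in Cre/+ and 19.1 to 24.2 TPM in Cre/Cre, in the order of the labels. A pair of Cre/Cre libraries stood apart. The ribosomal RNA precursor Rn45s made up 9.21% of all TPM in Cre/Cre replicate 1, beside 0.0827% to 0.336% in the other 8 libraries. Lens genes, of which *Cryaa* was the highest on average, summed to 1489 TPM in Cre/Cre replicate 2 and to at most 376 TPM in the libraries of +/+ mice. *Xist*, the RNA of the inactive X chromosome, had 2.08 to 3.16 TPM in Cre/+ replicate 3, Cre/Cre replicate 1 and Cre/Cre replicate 3, and 516 to 585 TPM in the other 6. Values without one of these libraries are given for some results only, and results without such a value may depend on these libraries as well.

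Müller glial genes outside the 10 were present in every library. The 12 genes of an independent marker list were all tested, and their sum was 2609 to 2752 TPM in +/+, 2620 to 2710 TPM in Cre/+ and 2306 to 2681 TPM in Cre/Cre, where replicate 1 was the lowest and the next was 2589 TPM. *Clu* was the highest of them, with a mean of 702 TPM, followed by *Slc38a3* with 671 TPM and *Rlbp1*, the retinaldehyde-binding protein of the visual cycle, with 478 TPM. *Rlbp1* was at 433 to 514 TPM over the 9 libraries. Astrocytes, the other macroglia of the retina, lie in the nerve fibre layer. Of their markers, *Gfap* had 27.5 to 45.6 TPM and *Pax2* at most 0.923 TPM, so the latter fell below the filter. The 4 astrocyte markers summed to 56.7 to 76.2 TPM in +/+, 52.2 to 61.3 TPM in Cre/+ and 51.8 to 63.7 TPM in Cre/Cre. The 9 microglial markers summed to 77.5 to 88.8, 81.3 to 89.1 and 76.3 to 90.7 TPM in the same order.

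Levels of the 10 genes ran over a wide range. *Glul* was the highest with a mean of 3080 TPM over the 9 libraries, which ranked 14 among all gene names. *Apoe* followed with 1181 TPM (rank 52) and *Dkk3* with 664 TPM (rank 143). *Vim* had 179.9 TPM, *Dbi* 179.1 TPM, *Slc1a3* 145 TPM and *Car14* 134 TPM. *Aqp4* had 83.1 TPM, *Kcnj10* 41.9 TPM and *Sox9*, a transcription factor, 15.1 TPM (rank 9708). Neighbours in this order did not overlap over the 9 libraries, apart from 2 pairs. *Vim* was above *Dbi* in 5 of 9 libraries, and *Slc1a3* above *Car14* in 8 of 9, so the order within these pairs is not settled by the data. Together the 10 genes made up 5845 ± 318 TPM in +/+, 5795 ± 129 TPM in Cre/+ and 5471 ± 415 TPM in Cre/Cre (n = 3 each, ± SD). Between 50.4% and 57.0% of this sum was *Glul*.

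**Figure D1:**
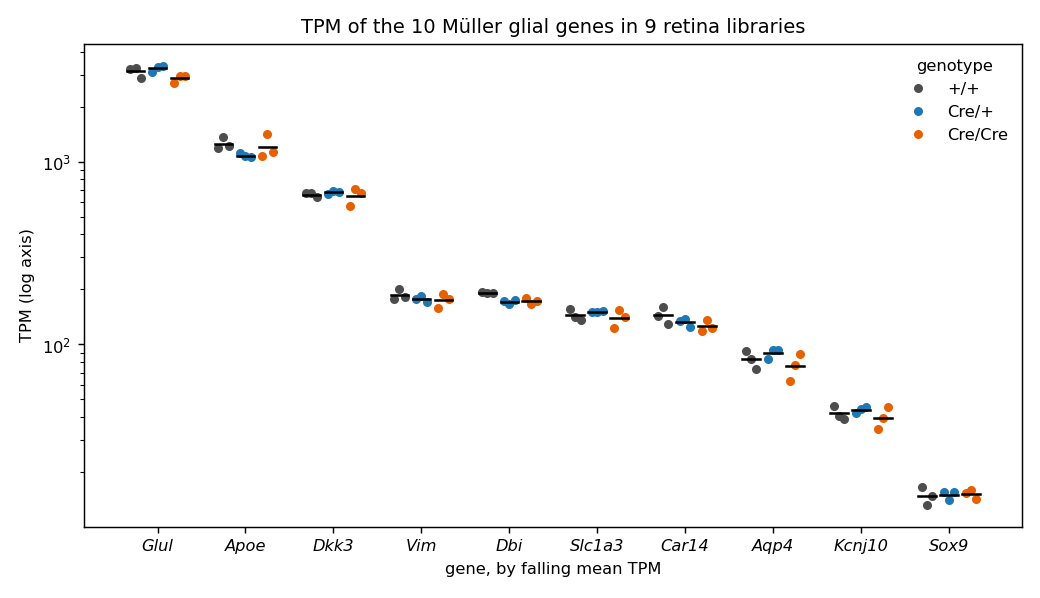
TPM of the 10 Müller glial genes (log axis) in each of 9 whole-retina libraries, coloured by genotype, with the mean of 3 libraries as a black line. The genes span from 15.1 TPM (*Sox9*) to 3080 TPM (*Glul*) on average, while the genotypes of any 1 gene lie close together.

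The spread between libraries of a genotype was small. The coefficient of variation within genotypes was 2.29% for *Dbi*, the lowest, and 12.4% for *Aqp4*, the highest. Its median over the 10 genes was 7.81%, beside 7.97% for the 10867 genes with a mean of at least 10 TPM. The mean coverage of *Glul* was 2960 to 4531 reads per base, that of *Aqp4* 29.1 to 49.4 and that of *Sox9* 16.9 to 21.1.

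Glutamate handling comes first. *Slc1a3* encodes GLAST, the glutamate transporter by which Müller cells clear the synaptic layers. It lies on the minus strand of chromosome 15 (mm10, 8634124 to 8710807), and its longest coding transcript has 4163 bases. It was 156, 142 and 136 TPM in +/+, 150.1, 151 and 153 TPM in Cre/+, and 123, 154 and 142 TPM in Cre/Cre. The Cre/+ values lay within the range of +/+, and Cre/Cre replicate 1 was the lowest of the 9. Among the 7 genes of its family, *Slc1a3* was the highest, ahead of *Slc1a7*, a transporter of photoreceptors and bipolar cells, with 135 TPM, *Slc1a2* with 111 TPM and *Slc1a1* with 36.8 TPM.

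*Glul* encodes glutamine synthetase, which joins ammonia to the glutamate taken up. The gene lies on the plus strand of chromosome 1 (153899929 to 153909723). It was 3199, 3269 and 2887 TPM in +/+, 3094, 3315 and 3344 TPM in Cre/+, and 2700.3, 2951 and 2957 TPM in Cre/Cre. All 3 Cre/Cre libraries were below all 3 Cre/+ libraries, as was so for 7.23% of all genes tested. The values of +/+ overlapped with both. A microRNA gene, *Mir8114*, is listed on the same strand over the start of *Glul*, with a mean of 57.1 TPM, and reads of the overlap cannot be told apart. *Glul* held 58.7% of the TPM of the 13 genes listed for the glutamine cycle. The next were *Slc38a3*, a glutamine transporter, with 671 TPM, and the aspartate aminotransferases *Got1* with 413 TPM and *Got2* with 297 TPM.

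In TPM, the 2 genes of this pathway stood 19.2- to 23.0-fold apart. The 250 bases before their start sites (RefSeq, GRCm38.p6) are shown to compare the promoters of the transporter and the enzyme, with promoter motifs on either strand in capitals. A GC box was searched for as GGGCGG. The CCAAT box is spelled as it is named. The last motif was the TATA box, spelled TATAAA. The stretches are chr1:153899679-153899928 on the plus strand for *Glul* and chr15:8710808-8711057 on the minus strand for *Slc1a3*.
Glul: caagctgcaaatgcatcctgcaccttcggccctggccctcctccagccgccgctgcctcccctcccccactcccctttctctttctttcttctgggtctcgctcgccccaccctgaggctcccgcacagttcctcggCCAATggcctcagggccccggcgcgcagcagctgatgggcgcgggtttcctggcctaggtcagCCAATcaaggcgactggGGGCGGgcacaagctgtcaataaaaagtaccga
Slc1a3: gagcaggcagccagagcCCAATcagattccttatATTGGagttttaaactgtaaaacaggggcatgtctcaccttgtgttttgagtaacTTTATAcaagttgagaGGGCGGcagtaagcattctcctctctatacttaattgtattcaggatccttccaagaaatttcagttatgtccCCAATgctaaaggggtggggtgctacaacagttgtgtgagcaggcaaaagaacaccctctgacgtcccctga
Of the *Glul* stretch, 64.8% of the bases are G or C and it holds 15 CG pairs. Of the *Slc1a3* stretch, 44.8% are G or C, and it holds 2 CG pairs. The median of all 32851 promoter stretches of this length was 52.4%. In the *Glul* stretch, CCAAT stands at -113 and -50 from the start site and GGGCGG at -33. In *Slc1a3*, GGGCGG stands at -145 and the nearest CCAAT at -72. Such letters are common, since 33.9% of all the stretches hold a CCAAT and 32.7% a GC box, and a match is a description of the sequence only.

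Next are the channels for potassium and water. *Kcnj10* encodes Kir4.1, the potassium channel that sets the membrane potential of Müller cells and lets potassium leave at the endfeet. The gene lies on the plus strand of chromosome 1 (172341210 to 172374085). It was 46.3, 40.7 and 39.2 TPM in +/+, 42.1, 44.1 and 45.7 TPM in Cre/+, and 34.5, 39.4 and 45.3 TPM in Cre/Cre. The 3 genotypes overlapped, and the lowest value was again that of Cre/Cre replicate 1. Within the 15 Kir channel genes *Kcnj10* ranked 3, behind *Kcnj14* with 507 TPM and *Kcnj9* with 111 TPM, and ahead of *Kcnj3* with 16.8 TPM.

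*Aqp4* encodes the water channel that sits beside Kir4.1 in the endfoot membrane. The gene lies on the minus strand of chromosome 18 (15389394 to 15410982). It was 92.3, 83.0 and 73.6 TPM in +/+, 83.0, 93.8 and 93.4 TPM in Cre/+, and 62.8, 77.3 and 88.5 TPM in Cre/Cre. These ranges overlapped as well, with Cre/Cre replicate 1 at the bottom. *Aqp1*, the aquaporin of photoreceptors and amacrine cells, was higher with 174 TPM, and *Aqp11* followed *Aqp4* with 12.1 TPM. Genes of the complex that anchors the channels in the endfoot were at similar levels, among them *Agrn* with a mean of 72.1 TPM and the dystrophin gene *Dmd* with 63.1 TPM.

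*Kcnj10* and *Aqp4* varied together. Their ratio lay between 0.470 and 0.549 over the 9 libraries, although each gene alone fell lowest in Cre/Cre replicate 1. The ratio was 0.508 ± 0.0224 in +/+, 0.489 ± 0.0182 in Cre/+ and 0.523 ± 0.0226 in Cre/Cre (n = 3 each, ± SD). The libraries of Cre/+ and Cre/Cre did not overlap, with an exact permutation p of 0.1 (two-sided), which is the smallest that 3 libraries against 3 allow. Adjusted over the 12 comparisons of ratios, this p was 0.24. The highest of the 9 ratios was that of Cre/Cre replicate 1, and the log2 difference of the means was 0.10 with that library and 0.06 without it. The Pearson correlation of log2(TPM + 1) of the 2 genes was 0.970 over the 9 libraries, the highest of the 45 pairs among the 10 genes. These 9 points share differences in library composition, and the median was 0.339 over the 45 pairs and 0.178 over all pairs of genes with at least 10 TPM. Without Cre/Cre replicate 1, the correlation of *Kcnj10* and *Aqp4* was 0.931 and the median over the 45 pairs was 0.06.

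*Car14* encodes a membrane-bound carbonic anhydrase of Müller cells, which speeds the exchange of carbon dioxide and bicarbonate. The gene lies on the minus strand of chromosome 3 (95897768 to 95904685), and its end overlaps *Aph1a* on the opposite strand. The kit keeps strand, but whether counting used it is not given in the sources used here. *Car14* was 143, 159 and 130.2 TPM in +/+, 134, 138 and 124 TPM in Cre/+, and 119, 136 and 122 TPM in Cre/Cre. Each knock-in genotype overlapped with +/+, and the 2 highest values were those of +/+ libraries. *Car2*, the cytosolic enzyme, was the highest of the 16 carbonic anhydrase genes with 584 TPM, and *Car10* and *Car11* followed *Car14* with 82.7 and 75.7 TPM. Among the genes listed for lactate and acid transport, *Ldha* had 1547 TPM, *Bsg*, the chaperone of lactate transporters, 955 TPM and *Ldhb* 287 TPM.

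*Apoe* encodes the lipoprotein by which glia hand cholesterol to neurons. It lies on the minus strand of chromosome 7 (19696244 to 19699188). It was 1182, 1374 and 1218 TPM in +/+, 1111, 1077 and 1055 TPM in Cre/+, and 1068, 1415 and 1132 TPM in Cre/Cre. All 3 Cre/+ libraries lay below all 3 of +/+, as was so for 10.3% of all genes tested. Cre/Cre reached on both sides of +/+. The highest value was that of Cre/Cre replicate 2, the library with the highest sum of lens genes, and a part of lens RNA in it was not tested. Without that library, the log2 fold change of *Apoe* in Cre/Cre against +/+ was -0.19 in place of -0.07. *Apoe* led the 15 genes listed for lipid transport, followed by *Clu* with 702 TPM and *Vldlr* with 164 TPM.

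*Dbi* encodes the acyl-CoA-binding protein, also known as diazepam-binding inhibitor, a carrier of fatty acyl-CoA whose fragments act on benzodiazepine sites. It lies on the minus strand of chromosome 1 (120113280 to 120121096). It was 194, 191 and 192 TPM in +/+, 173, 167 and 174 TPM in Cre/+, and 179, 168 and 174 TPM in Cre/Cre. All 6 knock-in libraries were below all 3 of +/+. Of all genes tested, 10.3% lay below +/+ without overlap in Cre/+ and 8.05% in Cre/Cre. Both shares use the same +/+ libraries, and the share for both at once was not computed. *Dbi* was the highest of the 9 genes of its list, ahead of *Acbd5* with 88.3 TPM, *Acbd3* with 58.2 TPM and *Acbd6* with 49.1 TPM.

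*Vim* encodes vimentin, the intermediate filament protein of resting Müller cells. It lies on the plus strand of chromosome 2 (13574311 to 13582826). It was 178, 202 and 182 TPM in +/+, 177, 184 and 171 TPM in Cre/+, and 158, 189 and 177 TPM in Cre/Cre. The genotypes overlapped. *Vim* ranked 3 among 10 intermediate filament genes, behind *Nefl* with 534 TPM and *Nefm* with 244 TPM, which are neurofilament genes of RGCs. *Ina*, another neuronal filament, had 106 TPM. The stretch before the *Vim* start site is shown because, among the genes matched, it was the only one with a TATA box close to the start (chr2:13574061-13574310 on the plus strand, GRCm38.p6, capitals as above).
Vim: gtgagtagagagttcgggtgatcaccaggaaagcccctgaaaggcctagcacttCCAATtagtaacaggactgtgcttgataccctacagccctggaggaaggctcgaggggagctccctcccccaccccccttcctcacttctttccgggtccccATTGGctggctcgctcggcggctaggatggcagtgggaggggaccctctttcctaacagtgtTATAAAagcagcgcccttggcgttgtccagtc
TATAAA stands at -32, and 12.4% of all 32851 stretches hold it somewhere on either strand. Promoter stretches were matched for 7 of the 10 genes, with 10 start sites in all. *Aqp4*, *Dkk3* and *Sox9* were not among the 7. The core letters bound by SOX proteins, AACAAT, were in none of the 10 stretches and in 9.42% of all stretches, which says only that these letters are not in these windows.

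*Sox9* encodes a transcription factor that Müller cells keep from the progenitor stage. It lies on the plus strand of chromosome 11 (112782210 to 112787757). It was 16.6, 13.3 and 14.8 TPM in +/+, 15.6, 14.1 and 15.5 TPM in Cre/+, and 15.4, 16.0 and 14.3 TPM in Cre/Cre. All values of both knock-in genotypes lay inside the range of +/+. *Sox2* was higher with 48.2 TPM and *Sox8* with 21.9 TPM, whereas *Sox10*, the gene of oligodendrocytes, had 0.253 TPM. Of the other glial transcription factors listed, *Pax6* had 278 TPM and *Rax* 172 TPM, and *Sox9* ranked 9 of those 11 genes.

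*Dkk3* encodes a secreted protein of the Dickkopf group. It lies on the minus strand of chromosome 7 (112116019 to 112159482). It was 671, 670.3 and 638 TPM in +/+, 667, 690 and 686 TPM in Cre/+, and 573, 713 and 671 TPM in Cre/Cre. The lowest and the highest of the 9 values were both in Cre/Cre, in replicates 1 and 2. *Dkk3* made up 95.3% of the TPM of its list, which also holds *Kremen1* with 27.0 TPM, *Kremen2* with 4.30 TPM and *Dkkl1* with 1.12 TPM.

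**Figure D2:**
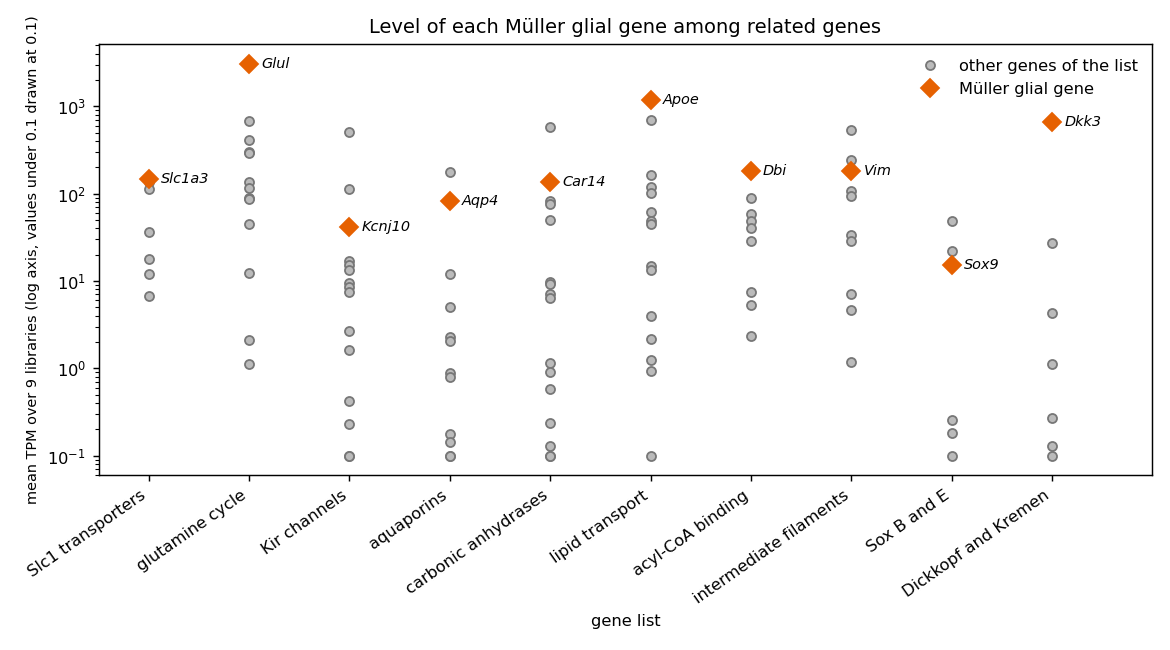
Mean TPM over 9 libraries (log axis) of each Müller glial gene (orange diamonds) and of the other genes of 1 list of related genes (grey points). *Slc1a3*, *Glul*, *Apoe*, *Dbi* and *Dkk3* are the highest of their lists, and *Kcnj10*, *Aqp4*, *Car14*, *Vim* and *Sox9* rank 2 or 3 in the lists drawn. Values under 0.1 are drawn at 0.1.

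In Cre/+ retinas, no significant difference from +/+ was detected for any of the 10 genes. The test was limma on log2(TPM + 1) over all genes tested. At the limit of 0.05 for the p adjusted by the Benjamini-Hochberg method, 0 of the 10 were called, beside 0.00658% of all genes tested. The median log2 fold change of the 10 genes was 0.03, and that of all genes tested was 0.00. Values ran from -0.22 for *Apoe* to 0.12 for *Aqp4*, with 4 genes below 0, as were 49.6% of all genes tested, and 6 above. At an unadjusted p under 0.05, which 10.7% of all genes tested had (5.82% lower), 2 of the 10 genes differed, both lower. *Apoe* had a log2 fold change of -0.22 (standard error 0.09, adjusted p = 0.44 in limma) and *Dbi* one of -0.16 (standard error 0.07, adjusted p = 0.422 in limma, the smallest of the 10). These 2 were also the only ones of the 10 whose libraries did not overlap with +/+, where 10.3% of all genes tested lay below +/+ without overlap. The count of 2 at an unadjusted p under 0.05 was 1 without +/+ replicate 1. It was 0 without +/+ replicate 2, +/+ replicate 3 or any 1 of the Cre/+ libraries. The 95% intervals of all 10 genes lay between a 0.749-fold and a 1.29-fold change.

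In Cre/Cre retinas, no significant difference from +/+ was detected either. Of the 10 genes, 0 were called, beside 0.00658% of all genes tested, and the smallest adjusted p was 0.702 for *Car14* (limma). The median log2 fold change was -0.09, where that of all genes tested was -0.02. Of the 10 genes, 9 were below 0, as were 57.7% of all genes tested. *Sox9* was the exception with 0.03. At an unadjusted p under 0.05, which 6.97% of all genes tested had (5.39% lower), 2 of the 10 genes differed, both lower. They were *Car14* with a log2 fold change of -0.20 (standard error 0.09) and *Dbi* with -0.15 (standard error 0.07, adjusted p = 0.709 in limma). With *Xist* as covariate, with only the genotypes compared, with the rescalings described next, without +/+ replicate 1 or without +/+ replicate 2, 0 of the 10 genes had such a p, and the value of *Car14* was -0.09 with *Xist* as covariate and -0.12 without +/+ replicate 2. *Dbi* was the only one of the 10 whose libraries lay below +/+ without overlap, as did 8.05% of all genes tested. The 95% intervals of the 10 genes lay between 0.768-fold and 1.20-fold.

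The negative median was not seen without Cre/Cre replicate 1. It was then 0.00497 with 4 of the 10 genes below 0, and that of all genes tested was 0.02. Without Cre/Cre replicate 2 it was -0.14, with that of all genes tested at -0.05. In Cre/Cre replicate 1, 7 of the 10 genes had their lowest value, as did 38.6% of all genes tested, and the sum of the 10 genes was 5033 TPM against 5511 to 6144 TPM in the other 8 libraries. A list meant for RNA without poly(A) tails, mainly Rn45s, took a larger share of that library than of any other. The list also held *Lars2*, a protein-coding gene, with 152 to 12510 TPM over the 9 libraries. With the list left out and each library rescaled to 1000000 TPM, 2 of the 10 genes had their lowest value in Cre/Cre replicate 1. The sum of the 10 genes was then 5682 TPM in that library and 5529 TPM in Cre/Cre replicate 3. The median log2 fold change of the 10 genes in Cre/Cre was then -0.04, with that of all genes at 0.03, and 8 of the 10 genes were below 0. With each library scaled by the median ratio of its genes, it was -0.06, with that of all genes at 0.00, and again 8 of the 10 were below 0. Under both rescalings 0 of the 10 genes were called. Values of whole retina do not separate the number of Müller cells from the RNA per Müller cell, and a change in either was not tested.

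**Figure D3:**
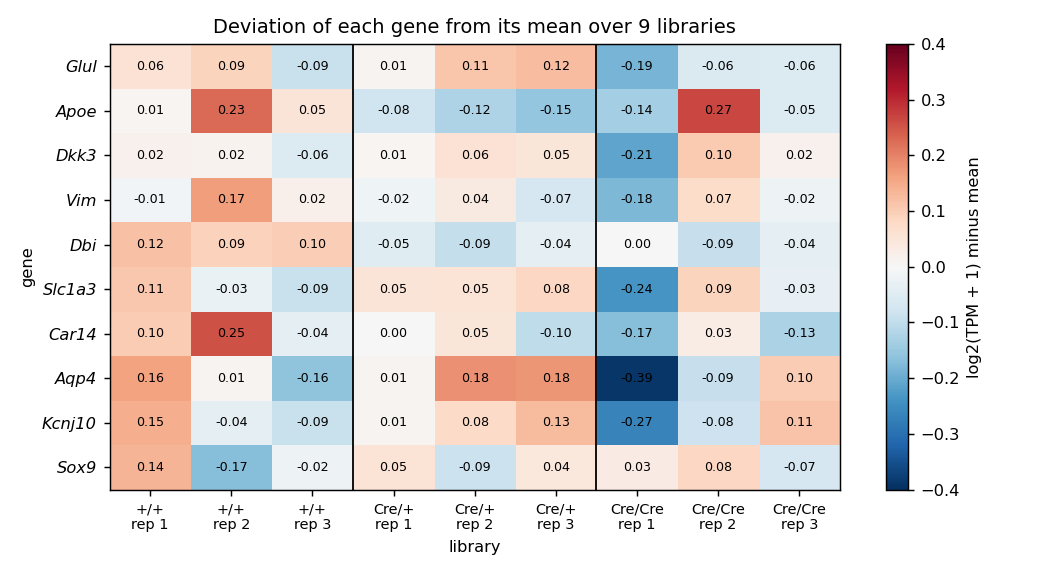
Deviation of log2(TPM + 1) of each Müller glial gene (lines) from its mean over 9 libraries (columns, grouped by genotype). The column of Cre/Cre replicate 1 holds the lowest value of 7 of the 10 genes, and *Dbi* is above its mean in the 3 +/+ libraries and at or below it in the 6 others.

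Between Cre/Cre and Cre/+ retinas, 0 of the 10 genes were called, beside 0.0132% of all genes tested (limma). The median log2 fold change was -0.07, with 7 of the 10 genes below 0, and that of all genes tested was -0.03, with 59.2% below 0. At an unadjusted p under 0.05, which 6.58% of all genes tested had (4.2% lower), *Glul* and *Aqp4* were lower. This count of 2 was 0 without the robust prior, without Cre/+ replicate 2 or without Cre/+ replicate 3. It was 1 with a pseudocount of 0.1, no filter, the replicate block, FPKM or without +/+ replicate 2, and 3 without Cre/Cre replicate 3. *Glul* had a log2 fold change of -0.18 (standard error 0.07, adjusted p = 0.74 in limma), and its libraries did not overlap, as was so for 7.23% of all genes tested in that direction. *Aqp4* had -0.25 (standard error 0.12), and -0.12 without Cre/Cre replicate 1. Leaving out that library gave -0.14 for *Glul*. The 95% intervals of the 10 genes lay between 0.707-fold and 1.27-fold. The 3 comparisons share libraries, so they are not independent of each other.

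In a trend over 0, 1 and 2 knock-in alleles, 0 of the 10 genes were called, beside 0.00658% of all genes tested (limma). *Car14* had the steepest slope, -0.10 per allele on the log2 scale (standard error 0.04, adjusted p = 0.779 in limma). It was the only one of the 10 with an unadjusted p under 0.05, as had 6.24% of all genes tested (4.82% lower). With *Xist* as covariate or under either rescaling, 0 of the 10 had such a p. The same held without +/+ replicate 1, +/+ replicate 2 or Cre/Cre replicate 3. Of the 10 slopes, 9 were below 0, as were 57.7% of all genes tested. With Cre/Cre replicate 1 left out, 5 of the 10 were below 0.

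**Figure D4:**
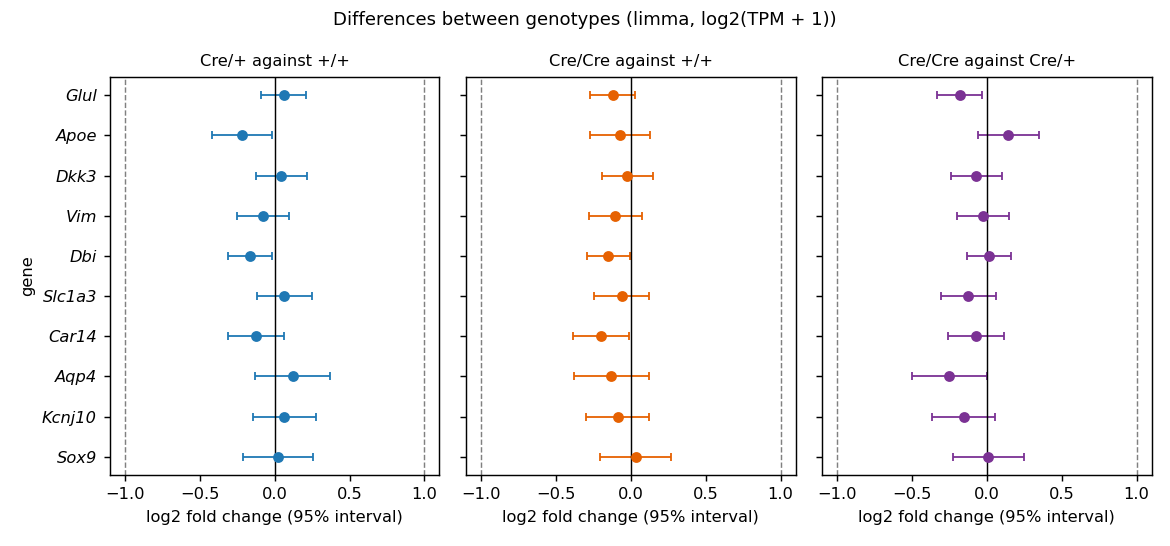
Log2 fold changes of the 10 Müller glial genes with 95% intervals (limma) in Cre/+ against +/+, Cre/Cre against +/+ and Cre/Cre against Cre/+. Dashed lines mark a 2-fold change. All points lie between -0.25 and 0.15, and no interval reaches a 2-fold change.

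Ratios within a library do not depend on how much RNA of other kinds the library holds. *Glul* to *Slc1a3*, the enzyme to the transporter that feeds it, was 21.6 ± 1.29 in +/+, 21.5 ± 0.758 in Cre/+ and 20.7 ± 1.43 in Cre/Cre (n = 3 each, ± SD), and the 3 genotypes overlapped. *Apoe* to *Glul* was 0.404 ± 0.0297 in +/+, 0.333 ± 0.0229 in Cre/+ and 0.419 ± 0.0525 in Cre/Cre (n = 3 each, ± SD). The 3 values of Cre/+ were 0.359, 0.325 and 0.316, below all values of the other genotypes. The highest value, 0.479, was that of Cre/Cre replicate 2, the library with the highest sum of lens genes. The log2 difference of Cre/Cre against Cre/+ was 0.33, and 0.23 to 0.39 with a library left out. *Dbi* to *Glul* was 0.0618 ± 0.00410 in +/+, 0.0528 ± 0.00278 in Cre/+ and 0.0606 ± 0.00495 in Cre/Cre (n = 3 each, ± SD), again with Cre/+ below the others without overlap. Each of these separations of Cre/+ had an exact permutation p of 0.1 (two-sided), the smallest possible, and an adjusted p of 0.24 over the 12 comparisons. In Cre/+ the ratios combine an *Apoe* and a *Dbi* mean below +/+ with a *Glul* mean at 104% of +/+.

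**Figure D5:**
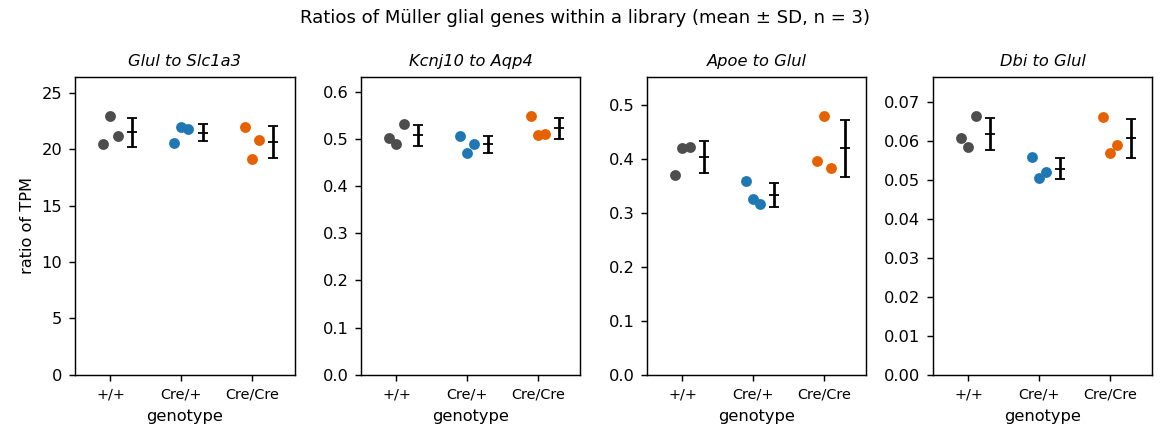
Ratios of TPM within a library (points, coloured by genotype) for 4 pairs of Müller glial genes, with mean and SD of 3 libraries beside them. The axes start at 0. *Glul* to *Slc1a3* stays between 19.2 and 23.0, and *Apoe* to *Glul* is lowest in the 3 Cre/+ libraries.

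The other genes of the 13 family and pathway lists numbered 128, of which 104 were tested. Called were 0 in Cre/+ against +/+, 0 in Cre/Cre against +/+ and 0 in Cre/Cre against Cre/+ (limma). At an unadjusted p under 0.05, 1 was higher and 9 lower in Cre/+, 1 was higher and 14 lower in Cre/Cre, and 1 was higher and 9 lower between the knock-in genotypes. The lower genes were 8.65%, 13.5% and 8.65% of those tested, beside 5.82%, 5.39% and 4.2% of all genes tested. Of the 14 lower in Cre/Cre, 4 were the neuronal filament genes *Nefh*, *Nefl*, *Nefm* and *Ina*. These counts were not computed without Cre/Cre replicate 1. Of all genes tested, 240 were higher and 819 lower in Cre/Cre with that library, and 896 higher and 544 lower without it. The median log2 fold changes of the 104 genes were -0.01, -0.07 and -0.06 in the order of the comparisons above. The smallest adjusted p in Cre/+ was 0.34, that of *Agrn*, the endfoot proteoglycan, with a log2 fold change of -0.27 (standard error 0.07). In Cre/Cre the smallest was 0.126, that of the neurofilament gene *Nefh*, and *Nefh* also had the smallest between the knock-in genotypes, 0.388 (limma). Of the glutamate transporters and glutamine cycle genes, 0 were called (limma), and at an unadjusted p under 0.05, 1 was lower in Cre/+ and 1 higher in Cre/Cre. *Slc1a2* had a log2 fold change of 0.17 in Cre/+ and 0.15 in Cre/Cre, each with a standard error of 0.08, and *Slc38a3* one of -0.05 and -0.01, each with a standard error of 0.10. *Aqp1* had -0.23 in Cre/Cre (standard error 0.08, adjusted p = 0.638 in limma).

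Of the family and pathway lists, that of intermediate filaments had the lowest median in Cre/Cre, -0.27 over its 10 genes, and -0.19 without Cre/Cre replicate 1. The genes highest in it are neuronal. *Nefh*, a neurofilament gene with 93.0 TPM, had the smallest p of the list, with a log2 fold change of -0.42 (standard error 0.08, adjusted p = 0.126 in limma) and of -0.39 without Cre/Cre replicate 1. *Ina* had a log2 fold change of -0.27 (standard error 0.08, adjusted p = 0.543 in limma), *Nefm* one of -0.34 (standard error 0.12) and *Nefl* one of -0.23 (standard error 0.08), whereas *Vim* had -0.10 (standard error 0.08). The 8 ganglion cell markers, which include *Nefl*, summed to 1301 to 1335 TPM in +/+, 1240 to 1274 TPM in Cre/+ and 967 to 1164 TPM in Cre/Cre, with replicate 1 the lowest and the next at 1107 TPM. Their part in the filament values was not tested.

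Genes that rise in reactive gliosis were not called in the knock-in retinas. *Gfap* was 38.6, 45.6 and 30.0 TPM in +/+, 31.8, 33.5 and 28.2 TPM in Cre/+, and 27.5, 35.7 and 28.0 TPM in Cre/Cre. Its log2 fold change was -0.26 in Cre/+ and -0.30 in Cre/Cre, each with a standard error of 0.14, and adjusted p of 0.508 and 0.727 (limma). The 10 gliosis genes, led by *Stat3*, summed to 139 to 182 TPM in +/+, 125 to 150 TPM in Cre/+ and 122 to 146 TPM in Cre/Cre. Of the 9 tested, 0 were called in either comparison with +/+ (limma). At an unadjusted p under 0.05 there were 0 in Cre/+ and 1, lower, in Cre/Cre.

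Of the 12 independent Müller glial markers, 0 were called in either comparison with +/+ (limma). Their median log2 fold change was -0.02 in Cre/+ and -0.07 in Cre/Cre. *Sox2* was the only one with an unadjusted p under 0.05 in Cre/Cre, with a log2 fold change of -0.23 (standard error 0.08, adjusted p = 0.624 in limma). It was 50.1, 52.8 and 49.3 TPM in +/+, 48.8, 51.5 and 51.2 TPM in Cre/+, and 40.1, 46.3 and 43.6 TPM in Cre/Cre. The lowest value was that of Cre/Cre replicate 1. Of all genes tested, 8.05% lay below +/+ without overlap in Cre/Cre.

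The genes whose pattern over the 9 libraries was most like the mean of the 10 genes were *Tceal5*, *Tubg1*, *Anp32b*, *Cbfb* and *Akirin1*. Their Pearson correlations with that mean were 0.969, 0.959, 0.954, 0.952 and 0.95, the 5 highest of 10857 genes with at least 10 TPM. All 9 points share library composition, and none of these 5 is a glial marker of the lists used. Without Cre/Cre replicate 1 the 5 correlations were 0.892, 0.89, 0.827, 0.826 and 0.859, which ranked 5, 6, 15, 16 and 10. The independent markers lay lower, with 0.855 for *Clu*, 0.84 for *Rlbp1*, 0.831 for *Prdx6*, 0.824 for *Mlc1* and 0.811 for *Sox2*, 0.739 for *Rdh10*, 0.636 for *Cd9*, 0.504 for *Abca8a*, 0.382 for *Gpr37*, 0.126 for *Lhx2*, 0.04 for *Slc38a3* and -0.26 for *Hes1*. Without that library the 12 markers lay between -0.48 (*Lhx2*) and 0.767 (*Prdx6*), with 0.524 for *Clu* and 0.492 for *Rlbp1*.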

How the data were processed

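Strand-specific poly(A) libraries were sequenced as paired reads of 150 bases, and the authors used Trimmomatic, HISAT2 (mm10) and StringTie. The authors deposited TPM, FPKM and coverage per gene. Tool versions and the annotation are not given in the sources used here. Counts were not used, and the authors' DESeq2 test was not repeated. Rows that shared a gene name were added up. Genes that averaged at least 1 TPM were fitted with limma 3.58.1 (R 4.3.3, trend and robust prior) on log2(TPM + 1), which understates changes of low genes, in 1 model of 9 libraries with genotype as its only term. The script was tested on simulated data. Aligned gigabases come from coverage divided by FPKM, and counting error per gene is unknown. The limma p-values rest on the spread between libraries within genotypes, pooled over the 3 genotypes and drawn toward that of genes of like level. Whether each pair of retinas came from 1 animal is not stated in the sources used here. The members and lists were chosen with earlier results of these data known. Named besides the members were the 3 highest genes of each family or pathway list, the highest of each cell type list, all independent Müller glial markers, *Rbpms*, *Xist*, Rn45s and the 5 most similar genes. Some genes under this rule are not reported here. Genes named outside it (*Agrn* and *Nefh* as the smallest p, *Sox10*, *Pax2*, *Mir8114*, *Aph1a*) were chosen after their values were seen. Alternatives were a pseudocount of 0.1, no filter, a filter of 5 TPM, the replicate number as a block, *Xist* as covariate, the compared genotypes only, both rescalings, FPKM, no robust prior and each library left out. Correlations and filament genes without Cre/Cre replicate 1 were added after seeing the data. Promoters are from RefSeq.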

Additional observations from a re-analysis of the deposited data

How the results depend on the processing

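Under the alternatives listed above, 0 of the 10 genes were called in each of the 3 comparisons, and likewise in the trend, which was not run with only the genotypes compared. They had a smallest adjusted p of 0.144 (limma). Of 570 recomputed log2 fold changes of single genes, 28 changed sign, 8 of them without Cre/Cre replicate 1, and 0 changed call. With replicate number as a block, 0 of the 10 genes were called and the median in Cre/Cre against +/+ was -0.09, and 1 gene of all was called in each comparison. Same-numbered libraries did not deviate together (correlations of -0.116 to 0.128, median -0.01, beside -0.194 to 0.261 for other numbers), so the numbers were not taken as pairs. With each library left out in turn, the median of the 10 genes was 0.01 to 0.07 in Cre/+, -0.14 to 0.00497 in Cre/Cre and -0.13 to -0.02 between them. The 12 differences of ratios and the sums by genotype each moved by less than 1 SD between libraries. The number of all genes called, against which the members are read, was 1 in Cre/+, 1 in Cre/Cre and 2 between them. In Cre/+ it was 2 without a filter or with only the genotypes compared, 0 with FPKM, and 1 to 5 with a library left out. In Cre/Cre it was 3 with a pseudocount of 0.1, without a filter or with *Xist* as covariate, 5 with only the genotypes compared, and 1 to 4 with a library left out. Between Cre/Cre and Cre/+ it was 1 without a filter, with the replicate block, with median-ratio scaling or without the robust prior, 5 with a filter of 5 TPM, 6 with *Xist* as covariate or FPKM, and 1 to 8 with a library left out. The cause was not tested. Read depth per gene is unknown, and changes within the intervals given for each comparison are not excluded. *Xist* was low in 1 Cre/+ library, in 2 Cre/Cre libraries and in 0 of +/+, so sex and genotype are partly confounded.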

Other observations

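Coverage divided by FPKM took a library's common value for *Glul*, *Slc1a3*, *Kcnj10*, *Vim* and *Sox9*. It was 94.7% to 94.9% of that value for *Dkk3*, 78.8% for *Dbi*, 77.8% to 77.9% for *Apoe*, 75.5% to 79.0% for *Car14* and at most 43.0% for *Aqp4*. GENCODE lists 9 coding transcripts for *Aqp4* and 1 each for *Kcnj10* and *Dkk3*. On coverage, *Aqp4* stands lower against the other genes than on TPM, and the ratio of *Kcnj10* to *Aqp4* given above is on the TPM scale. Which transcripts the *Aqp4* reads came from was not analysed here.

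Blood and pigment epithelium markers, neither of them part of the neural retina, also varied between libraries. The 7 blood genes summed to 174 to 269 TPM in +/+, 146 to 172 TPM in Cre/+ and 253 to 464 TPM in Cre/Cre, and *Hba-a2* was the highest of them. The pigment epithelium genes, led by *Ttr*, summed to 24.0 to 59.7, 44.1 to 106 and 32.8 to 60.6 TPM. The endothelial and mural genes, led by *Kdr*, the VEGF receptor, summed to 254 to 279, 244 to 266 and 217 to 253 TPM.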
